A study of Homo sapiens with 12 samples.

Results

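A set of 8 genes that p53 is known to switch on and that act in DNA repair or in the survival of damaged cells was followed through treatment with the MDM2 inhibitor RG7112. They are DDB2, XPC, POLK, POLH, GADD45A, PHLDA3, RPS27L and TRIAP1. They were found by Ensembl identifier in the deposited count table, where all 8 of 8 had a row among 20595 genes. The rule that picked them uses names and no measured value, but the set was chosen with earlier results of these data known.

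RNA was sequenced from 2 human lung adenocarcinoma cell lines, A549 with WT p53 and H1792 with mutant p53, both described as carrying amplified MDM2. A sentence of the paper on this experiment swaps the p53 status of the lines, and the status given in most of its legends was used. Each line was kept for 48 h in DMSO or in RG7112. Each of the 4 groups had 3 replicates, which gave 12 samples. For RG7112, 1 μM was taken as the dose because it stands in the sample labels and in the methods, whereas the column names of the table carry a 10 times lower one. Nothing in the sources says that the replicates came from separate cultures, so the p-values measure only the spread between these samples. Each p53 status was represented by 1 cell line, so the p53 status cannot be told apart from any other difference between the lines.

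MDM2 is the ubiquitin ligase that binds p53 and marks it for degradation, and its own gene is a p53 target. RG7112 belongs to the nutlin family and occupies the pocket of MDM2 that holds p53. Freed p53 binds a pair of short decamers in the DNA near its targets and raises their transcription. Nucleotide excision repair removes bulky lesions such as UV dimers after they have been recognized by the DDB1-DDB2 complex and by XPC, and translesion polymerases such as POLH and POLK copy past lesions that remain.

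The total per sample ranged from 2011916 to 6218825 estimated counts. Levels are given as CPM, the counts of a gene relative to the library total and scaled by TMM, a normalization that assumes that most genes do not change, and 3 counts stood for 0.463 to 1.43 CPM, a limit that covers counting error only. In A549, replicate 3 of both treatments deviated together: its deviation from the group means correlated at 0.294 between treatments. Deviations within a group sum to 0, so the values of -0.234 to -0.141 with the other numbers are no separate evidence. The mean correlation of replicate 3 with its own group was 0.926 with DMSO and 0.923 with RG7112, against 0.931 to 0.945 for the other A549 samples. Results of the 8 genes in A549 are therefore also given without replicate 3. Keratin genes KRT7, KRT8 and KRT18 were at 180 CPM or more in every sample, and EPCAM did not exceed 6.21 CPM. KRT19 was at 1056 CPM or more in A549 and at 59 or less in H1792, and CDH1 reached 21.9 CPM in A549 and 1.05 in H1792. With DMSO, 5 of the 6 epithelial markers were called higher in A549, against 25.6% of all genes. The lung markers NKX2-1, SFTPB and SFTPC were at or near 0 in both lines. The fourth lung marker, NAPSA, reached 5.69 CPM in A549 and 0.87 in H1792, and was higher in A549 with DMSO (adjusted p = 0.0196). Of 6 markers of fibroblasts, endothelium and blood, COL1A1 alone was above 1.86 CPM in any sample, with 252 to 295 CPM in H1792 with DMSO.

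The best known targets of p53 were measured alongside. MDM2 rose in A549 from 8.52 ± 4.98 CPM (SD, n = 3) with DMSO to 69 ± 9.25 CPM with RG7112, a log2 fold change of 2.99 (adjusted p = 0.0102). Without replicate 3 its log2 fold change was 3.29 (adjusted p = 0.0223). CDKN1A, which encodes the cell cycle inhibitor p21, was at 44.9, 42.4 and 24.1 CPM with DMSO in A549 and at 202, 189 and 939 with RG7112, so replicate 3 was the lowest control and by far the highest treated sample. It rose by 3.58 on the log2 scale (adjusted p = 0.0252), or 12-fold, and without replicate 3 by 2.18 (adjusted p = 0.00171), or 4.52-fold. In H1792 the log2 fold changes were -0.05 for MDM2 (adjusted p = 0.928) and 0.15 for CDKN1A (adjusted p = 0.882).

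Promoter windows of 300 bases around start sites, from RefSeq on GRCh38.p14, were at hand for 6 of the 8 genes. GADD45A and PHLDA3 had none in the table used. The p53 decamer, which reads the same on both strands, was found in 6.63% of 35116 windows, and a pair of decamers with up to 13 bases between them in 0.0285%. A match is a description of the letters and not evidence of binding. DDB2 held such a pair, 6 to 26 bases after the second of its 2 start sites, within the 5′ UTR of transcript DDB2-201 in GENCODE v29. It lies on the plus strand at chr11:47214979-47214999 and is shown with the decamers in capitals and the spacer in lower case.
DDB2 pair: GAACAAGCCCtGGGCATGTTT
The 218 bases of the same window that precede the first exon of transcript DDB2-201, at chr11:47214724-47214941 on the plus strand, hold no exon of DDB2 although other transcripts of the gene start further upstream; they are shown as the surroundings of that pair and contain no decamer.
DDB2 upstream: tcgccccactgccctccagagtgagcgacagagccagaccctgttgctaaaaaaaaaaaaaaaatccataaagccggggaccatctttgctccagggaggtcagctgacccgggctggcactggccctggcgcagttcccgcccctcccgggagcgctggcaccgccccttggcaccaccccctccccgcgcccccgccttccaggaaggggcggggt
RPS27L held a single decamer, 59 to 50 bases before its start site and within the 5′ UTR of the longer transcript RPS27L-201. It is shown in capitals with 10 bases on each side, on the minus strand at chr15:63157517-63157546.
RPS27L decamer: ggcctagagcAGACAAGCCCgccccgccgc
The windows of XPC, POLK, POLH and TRIAP1 and the first window of DDB2 held no decamer, which says only that these letters are absent from those windows. Of 10 genes in the whole table of windows with a pair, 3 were tested in A549 (DDB2, DYNC2H1 and MCC), and 0 of the 3 passed the test there. The log2 fold changes of DYNC2H1 and MCC in A549 were -0.16 (adjusted p = 0.892) and 1.54 (adjusted p = 0.105).

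**Figure D1:**
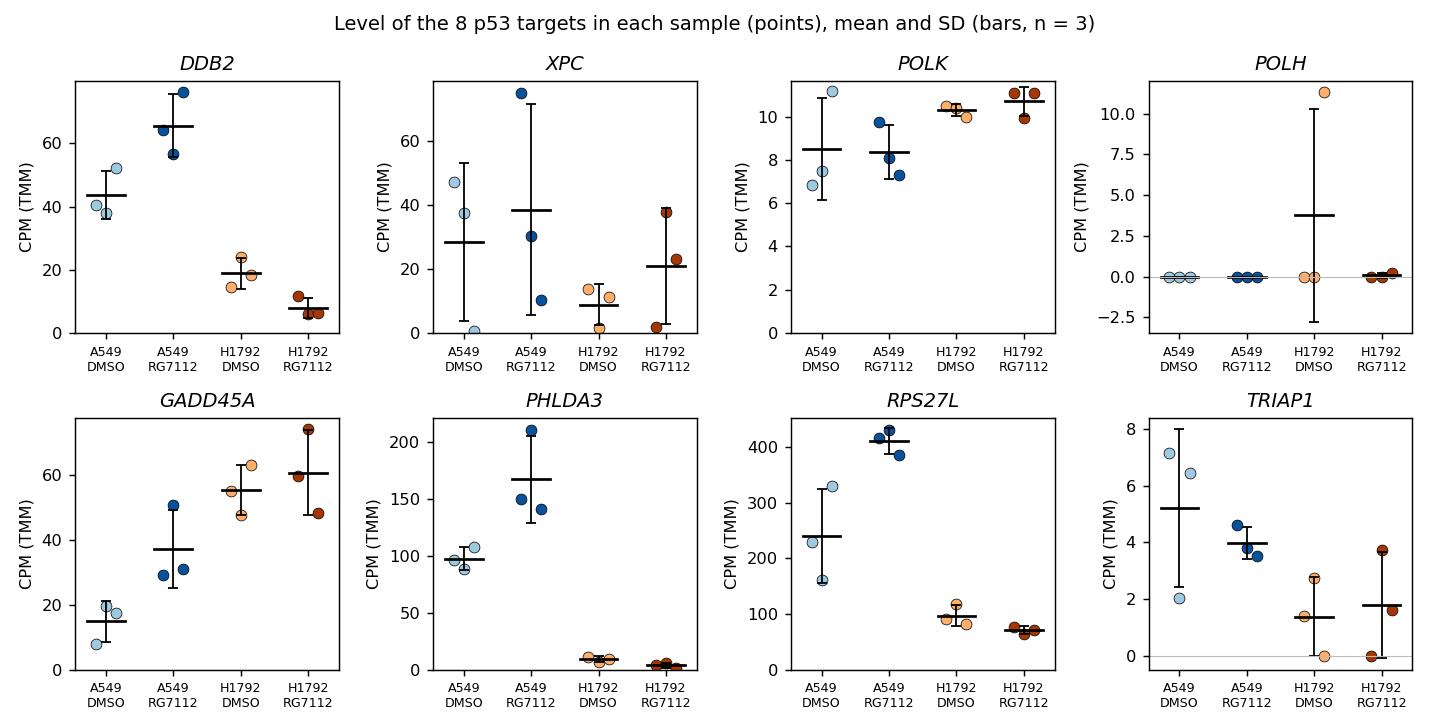
CPM of each of the 8 genes in every sample (points), with the mean (thick bar) and SD (error bar, n = 3) of each of the 4 groups; each panel has its own linear axis. For DDB2, PHLDA3 and RPS27L the 4 groups step down from A549 with RG7112 to H1792 with RG7112 without overlap, whereas XPC varies from 0.497 to 47 CPM within A549 with DMSO.

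Of the 8 genes, 4 were higher in all 3 A549 samples with RG7112 than in all 3 with DMSO. These were DDB2, GADD45A, PHLDA3 and RPS27L, at 1.51 to 2.44 times their level with DMSO. None of them passed the test across all genes. Of 7 members tested in A549, 0 had an adjusted p under 0.05 (edgeR quasi-likelihood test, Benjamini-Hochberg), against 8.38% of all 10739 genes tested. At an unadjusted p under 0.05, 4 of 7 were higher, against 12.4% of all genes, and the same 4 were higher with no overlap in CPM, against 16.2% of all genes. The median log2 fold change of the 7 was 0.59 and that of all genes tested was -0.01. DESeq2 called 3 of the 7 (GADD45A, PHLDA3 and RPS27L), and without replicate 3 of A549 the count was 2 (PHLDA3 and RPS27L). DESeq2 also called more genes over the whole table than the main fit, as given further below. The share of all genes called without replicate 3 is not given here. Neither count is therefore a result about these genes in particular.

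DDB2 is the subunit of the UV-damaged DNA binding complex that contacts the lesion (ENSG00000134574, GRCh38 chromosome 11, 47214465 to 47239240, plus strand). In A549 it was at 40.5, 38 and 52.2 CPM with DMSO and at 64.1, 56.5 and 76.1 with RG7112. The groups did not overlap, and replicate 3 was the highest of each. This was a log2 fold change of 0.59 ± 0.20 (SE), or 1.51-fold with a 95% confidence interval of 1.08 to 2.11, with an adjusted p of 0.128. Without replicate 3 it was 0.64 (adjusted p = 0.0635).

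GADD45A is a stress protein that binds PCNA and the CDK1-cyclin B1 kinase (ENSG00000116717, chromosome 1, 67685061 to 67688338, plus strand). With DMSO it was at 7.79, 19.6 and 17.4 CPM in A549, and with RG7112 at 29.2, 50.8 and 31.1. Its log2 fold change was the highest of the 8 genes in this line, 1.29 ± 0.40, or 2.44-fold with an interval of 1.28 to 4.67 (adjusted p = 0.0971). Only 4.65% of the genes tested had a higher log2 fold change. With DESeq2 the adjusted p was 0.0268, and without replicate 3 the log2 fold change was 1.49 (adjusted p = 0.147).

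PHLDA3 is a small pleckstrin homology protein that competes with the kinase AKT for membrane lipids (ENSG00000174307, chromosome 1, 201464383 to 201469237, minus strand). It was at 96.6, 88.5 and 108 CPM with DMSO in A549 and at 150, 211 and 141 with RG7112. Every treated sample lay above every control, and replicate 2 was the highest treated sample. The log2 fold change of 0.77 ± 0.19, or 1.71-fold (1.25 to 2.34), came closest to the threshold of all 8 genes, with an adjusted p of 0.0537. With DESeq2 the adjusted p was 0.00621, and without replicate 3 the log2 fold change was 0.96 (adjusted p = 0.0437). After a correction for GC content it was 0.58 (adjusted p = 0.192), and with all samples in one fit the adjusted p was 0.0991.

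RPS27L is a paralog of the ribosomal protein RPS27 and has been tied to the stability of p53 and MDM2 (ENSG00000185088, chromosome 15, 63125872 to 63158021, minus strand). Its levels in A549 were 229, 162 and 330 CPM with DMSO and 416, 431 and 385 with RG7112. The controls were spread widely and the treated samples lay close together. The log2 fold change was 0.78 ± 0.25, or 1.71-fold (1.14 to 2.57), with an adjusted p of 0.109. Leaving out the highest control, replicate 3, gave 1.08 with an adjusted p of 0.0291, the lowest of the 6 fits that left out 1 sample each. Without replicate 3 of both treatments it was 1.13 (adjusted p = 0.0232), and with the GC correction 0.99 (adjusted p = 0.0677).

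XPC recognizes distorted DNA together with RAD23B and CETN2 (ENSG00000154767, chromosome 3, 14145147 to 14178783, minus strand). In A549 it was at 47, 37.6 and 0.497 CPM with DMSO and at 74.9, 30.4 and 10.3 with RG7112. In counts these were 151, 221 and 2 against 485, 64 and 38, so the lowest control held almost no XPC reads in a library of 4150211 counts. The log2 fold change of 0.46 ± 1.14 had an interval of -2.24 to 3.16 (adjusted p = 0.853), which leaves both a fall and a rise of more than 4-fold within it. Without replicate 3 it was 0.37 ± 0.43 (adjusted p = 0.639). Replicates also differed in H1792, with 13.7, 1.61 and 11.3 CPM with DMSO and 1.8, 37.8 and 23 with RG7112.

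The translesion polymerases gave little signal. POLK, which inserts bases opposite bulky guanine adducts (ENSG00000122008, chromosome 5, 75511756 to 75601144, plus strand), was at 6.85, 7.49 and 11.2 CPM with DMSO in A549 and at 9.73, 8.08 and 7.31 with RG7112. The groups overlapped, and the log2 fold change was -0.02 ± 0.33 with an interval of -0.79 to 0.76 (adjusted p = 0.983). Without replicate 3 it was 0.33 (adjusted p = 0.569). POLH, the polymerase that copies UV dimers and is missing in the variant form of xeroderma pigmentosum (ENSG00000170734, chromosome 6, 43576150 to 43615660, plus strand), was listed at 0 in 10 of 12 samples. It had 26 counts (11.3 CPM) in replicate 3 of H1792 with DMSO and 1 count in replicate 3 of H1792 with RG7112, and it was tested in neither line. CUL4B, a ubiquitin ligase subunit of the repair list used here, was also listed at 0 in all 12 samples.

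TRIAP1 carries phospholipids within mitochondria together with PRELI proteins and restrains the apoptosome (ENSG00000170855, chromosome 12, 120443961 to 120446412, minus strand). In A549 it was at 7.16, 2.04 and 6.46 CPM with DMSO and at 4.63, 3.8 and 3.52 with RG7112, which lay inside the range of the controls. The log2 fold change of -0.35 ± 0.53 had an interval of -1.60 to 0.89 (adjusted p = 0.741), and without replicate 3 it was -0.04 (adjusted p = 0.978). In H1792 it reached at most 3.73 CPM, was at 0 in 1 sample of each treatment, and was too low to be tested.

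Several of these genes overlap another gene on the opposite strand in GENCODE v29, among them XPC with LSM3, POLK with COL4A3BP and RPS27L with LACTB. The library kit keeps the strand, but whether the counting used it is not given in the sources used here, so such reads could not be assigned with certainty. No member had the same counts in all 12 samples as another row.

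In H1792, the p53 mutant line, none of the genes rose. DDB2 fell, and PHLDA3 and RPS27L were also lower with RG7112 in all 3 samples without passing the test. Of 6 members tested, 1 had an adjusted p under 0.05, against 34.1% of all 9914 genes tested and 16.5% called lower. Of the 6, 3 were lower with no overlap in CPM, against 28.5% of all genes. The median log2 fold change was -0.12 for the 6 and 0.01 for all genes tested. Epithelial markers moved in the same samples: 4 of 5 tested fell (KRT7, KRT8, KRT18 and KRT19), and their summed level was 1814 to 2181 CPM with DMSO and 1067 to 1334 with RG7112. The fifth, EPCAM, had a log2 fold change of 1.22 (adjusted p = 0.102). Of 3 mesenchymal markers, 2 were called higher in H1792, against 17.7% of all genes. These were FN1, by 1.02 (adjusted p = 0.00571), and CDH2, by 0.62 (adjusted p = 0.00713). The third, VIM, had a log2 fold change of -0.10 (adjusted p = 0.192), with means of 11264 CPM with DMSO and 9972 with RG7112. The summed level of the 3, most of it VIM, was 13435 to 14366 CPM with DMSO and 14122 to 15019 with RG7112. In A549, 1 of 5 epithelial markers rose (KRT19), and the summed level was 14443 to 18920 CPM with DMSO and 17056 to 23995 with RG7112; 0 of 3 mesenchymal markers was called there. Their part in the results was not tested.

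DDB2 was at 14.4, 24 and 18.3 CPM in H1792 with DMSO and at 11.6, 6.03 and 6.27 with RG7112. The highest treated sample was below the lowest control. This gave a log2 fold change of -1.18 ± 0.34, or 0.442-fold with an interval of 0.253 to 0.772 (adjusted p = 0.0365). This call was lost with library size alone as the scaling (-0.92, adjusted p = 0.0641), with a correction for GC content (-1.04, adjusted p = 0.0565), and without replicate 2 or 3 of DMSO or of RG7112, which gave adjusted p values of 0.0826 to 0.117. In all of these fits DDB2 stayed below 0. The call was also lost with no filter and with the replicate block.

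PHLDA3 was at 11.6, 6.91 and 9.57 CPM with DMSO in H1792 and at 3.87, 6.03 and 1.86 with RG7112. Its log2 fold change was -1.16 ± 0.47 (adjusted p = 0.102). RPS27L was at 90.4, 118 and 82.2 CPM with DMSO and at 77.6, 64.4 and 72.2 with RG7112, with a log2 fold change of -0.37 ± 0.14 (adjusted p = 0.0922). With the correction for GC content RPS27L was called, at -0.92 (adjusted p = 0.0115), in place of DDB2.

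GADD45A and POLK overlapped between treatments in H1792. GADD45A was at 54.9, 47.7 and 63.1 CPM with DMSO and at 59.6, 74.2 and 48.1 with RG7112, a log2 fold change of 0.21 ± 0.20 (adjusted p = 0.446). POLK was at 10.5, 10.4 and 10 CPM and at 11.1, 9.94 and 11.1 CPM, a log2 fold change of 0.13 with an interval of -0.37 to 0.63. XPC had a log2 fold change of 1.35 ± 1.07 (adjusted p = 0.365).

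**Figure D2:**
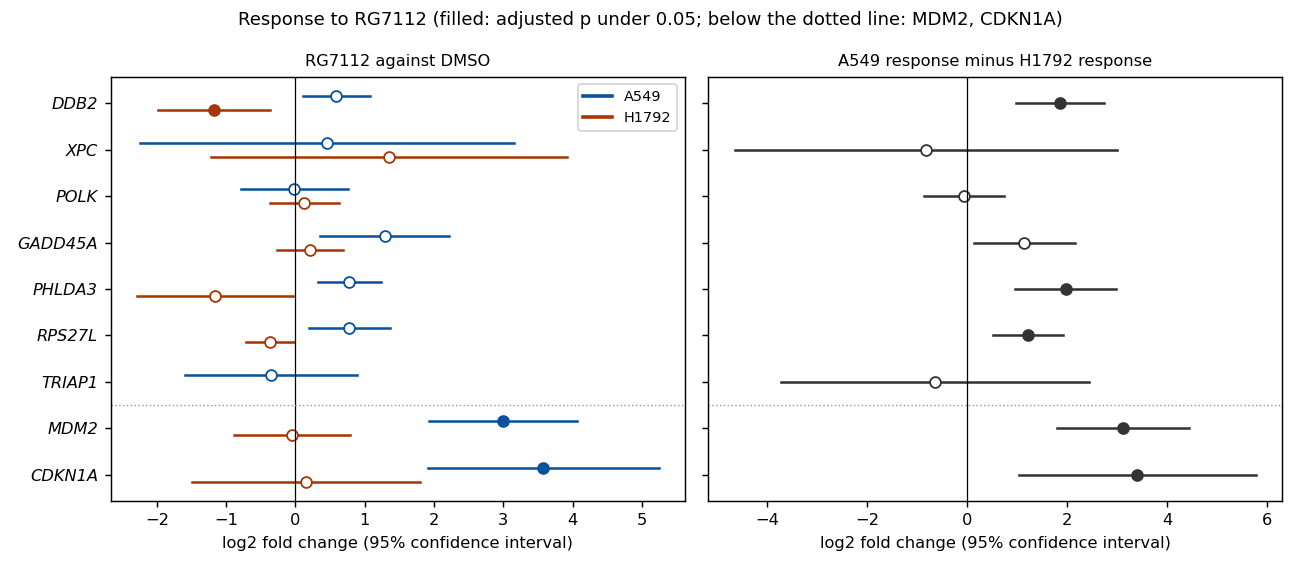
Left, log2 fold change of RG7112 against DMSO in A549 (blue) and H1792 (orange); right, the A549 response minus the H1792 response. Points are estimates, lines are 95% confidence intervals and filled points have an adjusted p under 0.05; DDB2, PHLDA3 and RPS27L are filled on the right, at 1.86, 1.97 and 1.22.

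Whether the lines differed in their response was tested directly, as an interaction over all 12 samples. DDB2, PHLDA3 and RPS27L differed: relative to DMSO, each ended higher in A549 than in H1792. Of 7 members tested, 3 had an adjusted p under 0.05, all with the response of A549 above that of H1792, against 21.8% of all 11666 genes tested and 10.4% called in that direction. The difference in log2 fold change was 1.86 ± 0.40 for DDB2 (adjusted p = 0.0096), 1.97 ± 0.46 for PHLDA3 (adjusted p = 0.0134) and 1.22 ± 0.32 for RPS27L (adjusted p = 0.0209). In fold terms the response ratio was 3.62 for DDB2 (1.97 to 6.64), 3.92 for PHLDA3 (1.95 to 7.87) and 2.33 for RPS27L (1.44 to 3.78).

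The call for DDB2 was kept in every fit that left out 1 sample, where the difference was 1.63 to 2.17. PHLDA3 was called in each of those fits too, at 1.60 to 2.42, but not after the correction for GC content (1.39, adjusted p = 0.0855). RPS27L rose to 1.89 after that correction (adjusted p = 0.00631) and missed the threshold with library size alone (0.84, adjusted p = 0.0536) and without replicate 1 of A549 with DMSO, replicate 2 of H1792 with DMSO or replicate 2 of H1792 with RG7112, with adjusted p values of 0.0511 to 0.0559. Without replicate 3 of A549 all 3 were called, at 1.89, 2.14 and 1.57.

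GADD45A, which had the highest response in A549, differed by 1.14 ± 0.46 with an interval of 0.13 to 2.15 and an adjusted p of 0.0987. The differences of POLK, XPC and TRIAP1 were -0.07 (interval -0.87 to 0.73), -0.83 (-4.65 to 2.99) and -0.64 (-3.72 to 2.43). The intervals of XPC and TRIAP1 span both directions by more than 4-fold, so a difference of that size was not detectable for them here. MDM2 and CDKN1A differed by 3.12 (adjusted p = 0.00604) and 3.40 (adjusted p = 0.045); without replicate 3 of A549 the difference of CDKN1A was 1.99 and missed the threshold (adjusted p = 0.0965).

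GC content moved with both responses. Across genes, the log2 fold change had a Spearman rho with GC content of 0.256 in A549 and of -0.483 in H1792, over 9941 and 9165 genes that are not independent. For the difference of responses the rho was 0.439 over 10745 genes. Among the members GC content ran from 36.9% in POLK and 42.5% in RPS27L to 55.3% in DDB2 and 62.0% in PHLDA3. Its part in the results was not tested beyond the correction. Corrected values stand beside the members whose call it changed, and they are not given for the other genes of the lists.

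**Figure D3:**
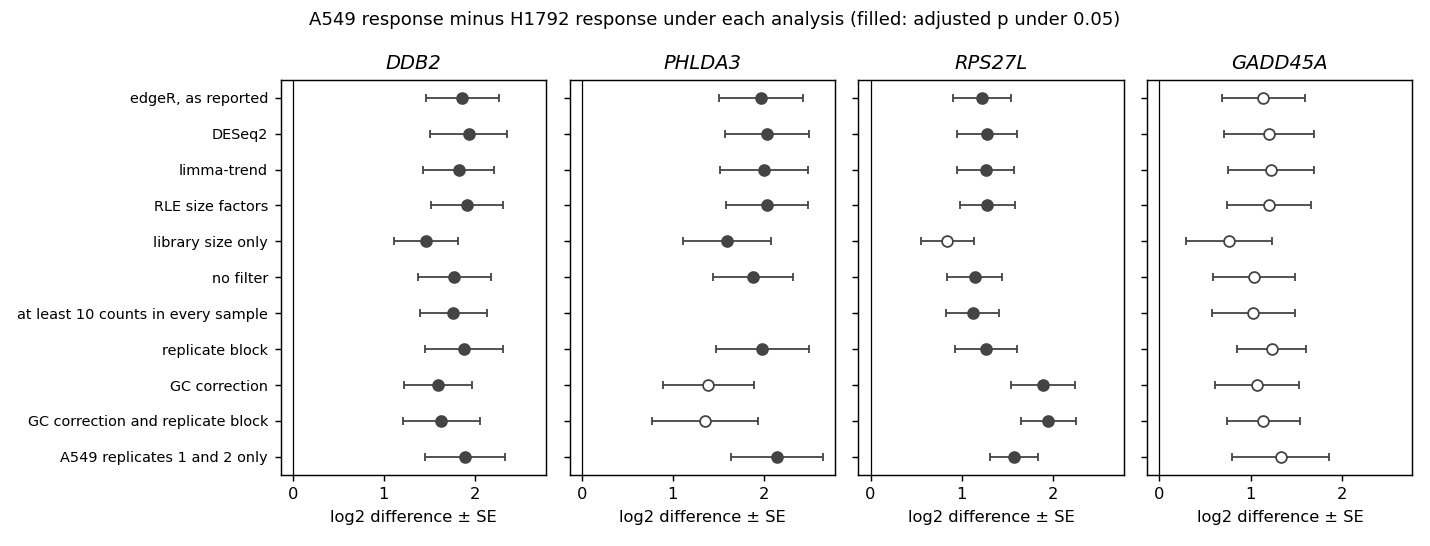
Difference between the A549 and the H1792 response (log2, points, with SE) for DDB2, PHLDA3, RPS27L and GADD45A under each analysis named on the left; filled points have an adjusted p under 0.05. DDB2 is filled in every row, PHLDA3 is open in both rows with the GC correction and absent from the row that needs 10 counts in every sample, RPS27L is open with library size only, and GADD45A is open throughout.

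The lines also differed before treatment. PHLDA3, RPS27L and DDB2 were higher in A549 than in H1792 with DMSO, and GADD45A was lower. Of 7 members tested, 4 had an adjusted p under 0.05, against 47.5% of all genes tested (25.6% higher and 22% lower), so their share was close to that of the whole table. PHLDA3 stood at 97.5 ± 9.58 CPM in A549 and at 9.36 ± 2.35 in H1792, 10.5-fold higher with an interval of 6.39 to 17.4 (adjusted p = 1.05e-05). RPS27L was 2.47-fold higher (1.75 to 3.49, adjusted p = 0.000729) and DDB2 2.29-fold higher (1.5 to 3.51, adjusted p = 0.00457). GADD45A was at 14.9 ± 6.27 CPM in A549 and at 55.2 ± 7.71 in H1792, or 0.275-fold (0.165 to 0.458, adjusted p = 0.000901).

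Ordered by level, DDB2, PHLDA3 and RPS27L shared the same sequence of groups: A549 with RG7112, A549 with DMSO, H1792 with DMSO, H1792 with RG7112. No neighbouring groups in that order overlapped for any of the 3 genes. Of all 11666 genes tested, 160 (1.37%) had this whole order without overlap, and 30.8% were higher in A549 than in H1792 with DMSO without overlap. The order was taken from these 3 genes after their values were seen, so its share of all genes is a description and not a test. For GADD45A the order was H1792 with RG7112, H1792 with DMSO, A549 with RG7112 and A549 with DMSO, and only the last stood apart, since replicate 2 of A549 with RG7112, at 50.8 CPM, lay within the range of H1792. POLK lay between 6.85 and 11.2 CPM in all 12 samples, with all 4 groups overlapping. Its difference between the lines with DMSO was -0.28 ± 0.26 (adjusted p = 0.406).

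Per kilobase of mean coding transcript length, RPS27L was the most abundant of the 8 genes in A549 with DMSO, at 141 CPM per kb, followed by PHLDA3 at 55.2 and DDB2 at 46.1. In H1792 with DMSO, RPS27L and GADD45A were nearly level, at 56.9 and 56.4 CPM per kb, and PHLDA3 was at 5.3. XPC, POLK, POLH and TRIAP1 were all below 13 CPM per kb in both lines with DMSO. These lengths average the annotated transcripts and do not show which of them the cells used.

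The spread between replicates differed widely among the members. The SD of log2(CPM + 1) within groups was 1.98 for XPC, larger than in 99.6% of 3732 genes within a factor of 2 of its mean level, whose median was 0.34. POLK was among the steadiest, at 0.20 with 5.96% of 3656 such genes below it. DDB2, at 0.33, lay near the median of its neighbours, 0.31, and GADD45A, PHLDA3 and RPS27L were above theirs, at 0.44, 0.41 and 0.30 against 0.30, 0.25 and 0.19. For single genes, the exact permutation test of 3 against 3 samples cannot give a p below 0.1, the value reached wherever groups did not overlap.

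**Figure D4:**
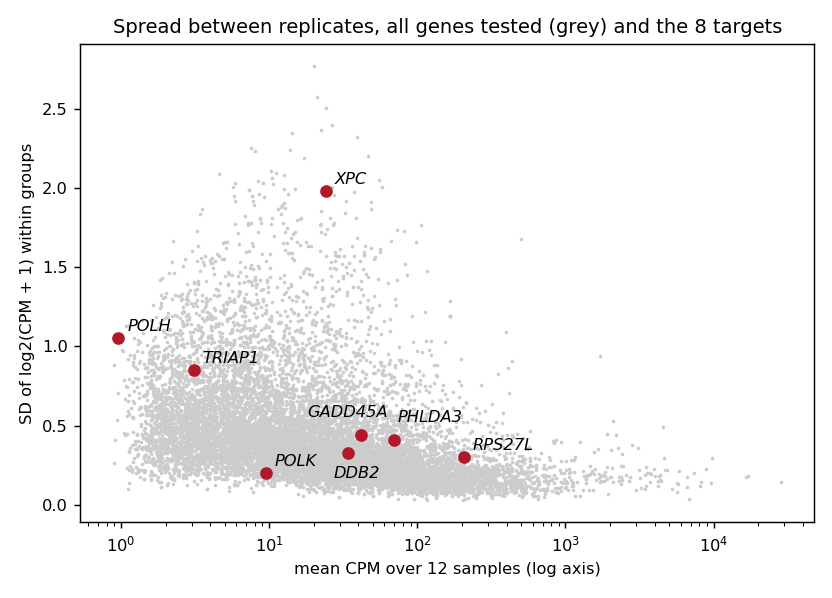
SD of log2(CPM + 1) within the 4 groups against mean CPM over 12 samples (log axis), for all genes tested (grey) and the 8 targets (red). XPC lies at 1.98, far above genes of its level, and POLK at 0.20 lies near the lower edge.

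Paralogs and partners of the members are given next. DDB1, which holds DDB2 in its ubiquitin ligase complex, fell in H1792 from 294 ± 18.8 to 79.6 ± 28.9 CPM, a log2 fold change of -1.82 ± 0.23 (adjusted p = 0.00402). In A549 its log2 fold change was 0.28 ± 0.52 (adjusted p = 0.797), and the difference between the lines was 2.17 (adjusted p = 0.0351). Both subunits of the complex had a call in H1792 and a call for the difference, against 34.1% and 21.8% of all genes tested. The call of DDB2 in H1792 was lost in several of the other fits.

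GADD45B had log2 fold changes of -0.22 in A549 (adjusted p = 0.801) and -0.08 in H1792 (adjusted p = 0.866), and GADD45G did not exceed 2.07 CPM in any sample. PHLDA1, a paralog of PHLDA3, was at 237 ± 12.1 CPM in A549 with DMSO and had a log2 fold change of -0.25 there (adjusted p = 0.334), while in H1792 it rose by 0.30 (adjusted p = 0.025). RPS27 had a log2 fold change of 0.16 in A549 (adjusted p = 0.772) and fell in H1792, by 0.74 on the log2 scale (adjusted p = 0.0262). POLI, the polymerase most like POLH, stayed at or below 3.43 CPM in all samples.

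Among the other genes of nucleotide excision repair, few changed in A549. Of 25 tested in that list, DDB2 and XPC included, 1 rose and 2 fell, shares of 4% and 8% against 4.35% and 4.03% of all genes. ERCC3, a helicase of TFIIH, rose by 1.36 (adjusted p = 0.0162), and RPA3 and RPA1, subunits of the single-strand binding protein RPA, fell, with log2 fold changes of -1.71 (adjusted p = 0.00521) and -0.73 (adjusted p = 0.0332). In H1792, 2 of 24 rose and 6 fell, shares of 8.33% and 25% against 17.7% and 16.5% of all genes. ERCC5, the nuclease that cuts on the 3′ side of the lesion, fell from 17.5 ± 3.02 to 1.03 ± 0.725 CPM, and RPA2 rose by 0.99 on the log2 scale (adjusted p = 0.0102). The median log2 fold change of the list was -0.10 in A549 and 0.01 in H1792.

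Of 17 translesion synthesis genes tested in A549, 0 rose and 1 fell. RAD18, which modifies PCNA at stalled forks, fell there from 3.11 ± 0.817 to 0.261 ± 0.241 CPM (adjusted p = 0.0353), a change between levels close to the counting floor. DESeq2 called 2 genes of this list, and without replicate 3 of A549 none was called (RAD18, adjusted p = 0.0724). In H1792, 2 of 14 rose, the ubiquitin conjugating enzymes UBE2N and UBE2A, by 0.43 and 0.29 (adjusted p = 0.01 and 0.0412), a share of 14.3% against 17.7% of all genes.

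In base excision repair, 1 of 15 genes rose and 1 fell in A549, the uracil glycosylase UNG by 0.99 (adjusted p = 0.0187) while LIG3 had -0.79 (adjusted p = 0.036). Each share, 6.67%, stood against 4.35% and 4.03% of all genes. In H1792, LIG3 rose and 3 of 15 fell, the glycosylases NTHL1 and SMUG1 and the scaffold XRCC1, shares of 6.67% and 20% against 17.7% and 16.5% of all genes. MSH6 fell in A549 from 127 ± 7.92 to 46.6 ± 11.3 CPM and rose in H1792 from 18.2 ± 9.54 to 55.8 ± 1.08 CPM, and the difference of -3.05 was itself called (adjusted p = 0.00127). EXO1 fell in A549 from 17.7 ± 2.04 to 1.15 ± 0.893 CPM.

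Among partners of GADD45A, CDK1 fell in A549 from 18.8 ± 3.25 CPM to 3 counts or fewer in every treated sample (adjusted p = 0.0024), and CCNB1 had a log2 fold change of -3.27 there (adjusted p = 0.000326). Both rose in H1792, by 0.84 and 0.29 (adjusted p = 0.0385 and 0.041). Of the mitochondrial partners of TRIAP1, PRELID3B fell in A549 by 1.11 on the log2 scale (adjusted p = 0.0412, or 0.107 without replicate 3) and rose in H1792 by 0.83 (adjusted p = 0.0294). Of 4 tested genes of the AKT list other than PHLDA3, none was called in A549 and 2, PHLDA1 and PDPK1, rose in H1792.

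Direct p53 targets outside repair were examined as a further list, chosen like the members with results known. In A549, 8 of 20 tested rose and 0 fell, against 4.35% of all genes called higher, all 20 had a positive log2 fold change, and their median was 1.57. TP53I3 rose from 352 ± 40.5 to 1499 ± 14.9 CPM, the apoptosis gene BBC3 from 25.5 ± 2.05 to 86.4 ± 10.9 CPM, and FDXR by 2.07 on the log2 scale (adjusted p = 0.00775). Whether this list and the repair targets differed was not tested. In H1792, 5 of 16 rose, against 17.7% of all genes, and 2 fell. PPM1D, CCNG1 and PLK2 rose there by 2.05, 1.49 and 1.23, and BAX and TP53I3 fell, with log2 fold changes of -0.56 and -0.58. With the correction for GC content 1 gene of this list was called in H1792, against 7 without it, while in A549 the count was 9 against 8. Without replicate 3 of A549, the genes called there were 11 in this list, 4 in nucleotide excision repair, 5 in base excision repair and 3 in mismatch repair. The share of all genes called in that fit, or with the GC correction in each line, is not given here. Whether these lists moved more than other genes therefore cannot be read from these counts.

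**Figure D5:**
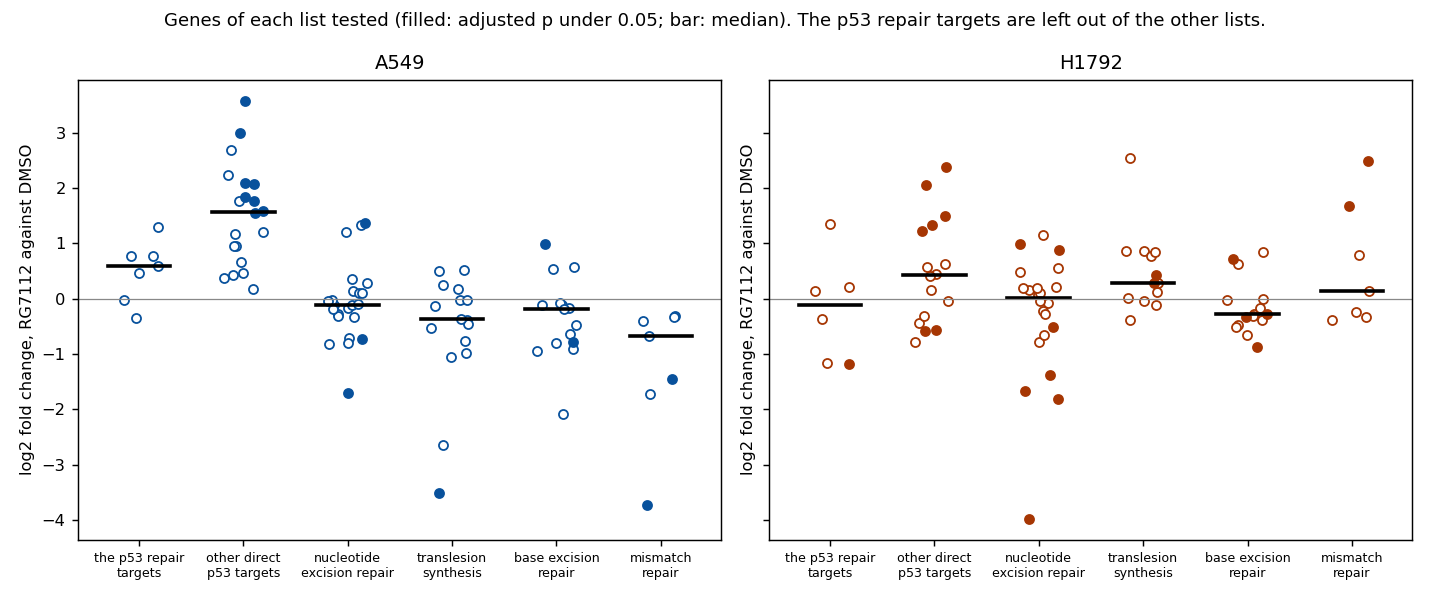
Log2 fold change of RG7112 against DMSO in A549 (left) and H1792 (right) for the tested genes of each list (points; filled: adjusted p under 0.05) with the list median (bar). In A549 the repair targets have a median of 0.59 and the other direct p53 targets one of 1.57, and in H1792 the repair targets have a median of -0.12.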

How the data were processed

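Poly-A RNA of 12 samples was sequenced from both ends; the labels give 38 nt reads and the paper's methods longer ones. The authors deposited estimated counts (expected counts) of each gene, whole and not normalized, that were made with kallisto 0.45.0 on Ensembl GRCh38 release 95 and added up to genes. Samples were grouped by cell line and treatment from the labels. The members and lists were chosen with earlier results of these data known, and every member is named. From a list, genes that passed a test were named, at most 3 per direction by smallest p.

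Each line was fitted in edgeR 4.0.16 (R 4.3.3): filterByExpr with a minimum count of 10 and a minimum total of 15, TMM, robust quasi-likelihood, and Benjamini-Hochberg adjustment over all genes tested. The difference of responses and the baseline difference used all 12 samples. CPM values used TMM over all 12 samples, and single genes a two-sided exact permutation test in scipy 1.17.1. Alternatives were DESeq2 1.42.0, limma-trend 3.58.1 (prior count 2), RLE or library size scaling, other filters and thresholds, a replicate block, a loess correction for GC content (span 0.5), and leaving out samples. On simulated counts for the difference of responses, 76 of 99 genes with a log2 difference of 2 and 19 of 95 with 1 were recovered. For the A549 response, 57 of 97 with 1 were. All simulated counts were given a smaller spread between replicates than the data. The common biological coefficient of variation of the data was 0.345 in A549 and 0.33 for the difference. These numbers therefore overstate what could be recovered from the data. With a simulated GC trend in A549, 1099 unchanged genes were called without the GC correction and 7 with it; the main fits carry no such correction. Symbols for 17978 of 20595 identifiers came from GENCODE v29. GADD45GIP1, PHLDA2 and SESN2 were not analysed here. Some genes of the lists are not reported here.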

Additional observations from a re-analysis of the deposited data

Results flagged for a closer look

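For 3 genes the response in A549 differed from that in H1792 by the interaction test over all 12 samples. The difference in log2 fold change, A549 minus H1792, was 1.86 for DDB2, 1.97 for PHLDA3 and 1.22 for RPS27L. In each case all 3 treated samples lay above all 3 controls in A549 and below them in H1792. Neither response of PHLDA3 or RPS27L passed the adjusted threshold within its own line, and of DDB2 only the fall in H1792 did, so the calls rest on the difference between opposite movements.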

How the results depend on the processing

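The number of members called in A549 was 0 and became 3 with DESeq2, 1 with at least 10 counts in every sample, 2 with all samples in one fit, and 2 without replicate 3 of both treatments; with 1 sample left out it was 0 to 1. In H1792 it was 1 and became 0 at an adjusted p under 0.01, with library size only and with no filter, and 2 with all samples in one fit; with 1 sample left out it was 0 to 1. For the difference of responses it was 3 and became 1 at an adjusted p under 0.01; it was 2 with library size only (without RPS27L), with the GC correction alone or with the block (without PHLDA3) and with at least 10 counts in every sample, and 2 to 3 with 1 sample left out. At baseline it was 4, and 3 with at least 10 counts in every sample, where PHLDA3 was not tested. Calls over all genes changed between these fits too and are given below for part of them, so a changed count of members alone does not single out the members.

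Same-numbered samples of the treatments correlated at 0.146, 0.0672 and 0.294 in A549 and at -0.0388, -0.0186 and 0.000538 in H1792, and in A549 replicate 2 with DMSO correlated best with replicate 1, so the numbers were not taken to pair the samples, although in A549 both samples numbered 3 deviated together. With the replicate block the members called were 1 in A549 and 0 in H1792, and with the replicate block and the GC correction 2 in A549 and 0 in H1792.

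Directions turned for genes that passed no test. In A549, XPC ranged from -0.50 to 1.00 and POLK from -0.15 to 0.23 in fits that omitted 1 sample, and POLK was 0.00 with limma-trend, 0.32 with the GC correction, 0.36 with the block as well and 0.33 without replicate 3. In H1792, POLK was -0.58 with the GC correction, with or without the block. For the difference of responses, XPC was 0.42 with limma-trend, POLK was 0.88 with the GC correction, 0.93 with the block as well and 0.26 without replicate 3 of A549, and TRIAP1 was 0.15 with the GC correction and the block. In fits that omitted 1 sample, POLK ranged from -0.24 to 0.17 and TRIAP1 from -1.63 to 0.43. The cause was not tested. Of the other values of members in fits that did not omit 1 sample, 241 kept direction and side of the threshold, 8 fell short of it and 13 passed it. In fits that omitted 1 sample, 230 kept both, 7 fell short and 1 passed.

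Over all genes, the 900 calls in A549 became 1438 with DESeq2, 1557 with all samples in one fit, 296 at an adjusted p under 0.01 and 321 to 725 with a sample left out. The 3384 in H1792 became 1840 with the block, 956 with block and GC correction, 1383 at an adjusted p under 0.01, 1450 with a log2 fold change over 1, and 1851 to 3377 with a sample left out. The 2539 differences became 1671 with the GC correction, 1467 with the block as well, 848 at an adjusted p under 0.01 and 1584 to 2978 with a sample left out. Library size in place of TMM moved the median of all genes in H1792 from 0.01 to 0.27 and that of the difference from 0.02 to -0.37. TRIAP1 and POLH were too low to be tested in H1792, where TRIAP1 had at most 21 counts and POLH was above 1 count in 1 sample.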

Other observations

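Over the 12 samples, with the mean of each line subtracted from log2(CPM + 1), Pearson r was 0.72 between DDB2 and RPS27L, 0.64 between DDB2 and PHLDA3, and 0.56 between RPS27L and PHLDA3. GADD45A gave 0.20 with DDB2, 0.48 with RPS27L and 0.49 with PHLDA3, POLK gave 0.06 with DDB2 and XPC gave -0.45. These values include the treatment itself and the same libraries and are a description only. Among 7437 genes with a mean of at least 10 CPM, those most like DDB2 were COL18A1 (0.98), ANAPC16 (0.97) and YJEFN3 (0.97), those most like RPS27L were MT-ATP6 (0.94), LRCH3 (0.94) and CSAG1 (0.93), and those most like GADD45A were TPST2 (0.95), CD2BP2 (0.93) and RAP1GAP2 (0.92). For PHLDA3 the named genes were ARHGAP4 and GET4, both at 0.89. XPC was most like SEC16A (0.92) and WDR27 (0.88), and POLK was most like PSPH (0.90).

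RPS27, a ribosomal protein gene, was listed at 21 ± 5.71 CPM in A549 with DMSO, below its paralog RPS27L at 240 ± 84.5, and per kilobase the values were 58.6 and 141 CPM. RPS27A was at 891 ± 248 CPM in the same samples. Whether the deposited counts of RPS27 give its true level was not tested.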
